A study of Mus musculus with 12 samples.

Results

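Spleens of mice immunized with cartilage proteoglycan (PG) were compared by the run of sample numbers that their arrays carry. The deposited descriptions number the 6 immunized arrays 48, 49 and 50 in a late run and 29, 31 and 33 in an early run, and the difference taken was late minus early. The late run holds 3 arrays, 48 from BALB/cByJ replicate 3 and 49 and 50 from BALB/cJ replicates 2 and 3. The early run holds the other 3, 29 and 31 from BALB/cByJ replicates 1 and 2 and 33 from BALB/cJ replicate 1. The remaining 6 of the 12 arrays came from naive mice, 3 of each colony, and are numbered 10 to 15. No source states that the runs are batches, and the sources used here give no hour or date of harvest, extraction or scan for either run.

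All mice were females of 2 inbred colonies of a single strain, BALB/cJ and BALB/cByJ, described as age-matched, with no transgene or deletion in any group. Late and early mice alike had received 1 intraperitoneal injection of human cartilage PG, given as 100 µg of protein in the labels and as 75 µg in the methods of the larger colony study, with 2 mg of the adjuvant dimethyldioctadecylammonium (DDA). Spleens were taken 12 days after that injection, before arthritis develops, and RNA was isolated from 50 mg pieces. Naive mice had no injection, and their sample numbers form a run of their own, so immunization cannot be told apart from the numbering. Each array stands for a separate animal. A piece of spleen can carry neighbouring pancreas, fat or capsule.

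The authors summarized each probe set on a logarithmic scale and subtracted its median over the 12 arrays. A value is therefore a log2 difference from the median array and holds no signal level, so the labelled tissue could not be checked against the level of its markers, and levels of different genes cannot be compared. The main fit was a limma model on the 6 immunized arrays with a term for colony. Array 48 is the only late BALB/cByJ array and array 33 the only early BALB/cJ array. With that term, a late minus early difference without array 48 is that within BALB/cJ, and without array 33 that within BALB/cByJ. Calls are probe sets whose p, adjusted after Benjamini and Hochberg over all 45037, was under 0.05. Gene values average the probe sets that name that gene alone, which gave 18193 genes. Groups are said not to overlap when all 3 late arrays lie above, or all 3 below, the 3 early arrays. An exact permutation test of 3 against 3 arrays cannot give a two-sided p below 0.1, so single values were not tested in that way.

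The genes that carry the comparison belong to a few well-known programmes. The circadian clock is a feedback loop in which Clock, Npas2 and Arntl activate E-box genes, among them the period genes Per1, Per2 and Per3, the nuclear receptors Nr1d1 and Nr1d2, and the transcription factor Dbp. Nr1d1 and Nr1d2 in turn repress Arntl, Npas2 and Clock, so that activators and targets reach their peaks at opposite times of day in most mouse tissues. The heat shock response is an induction of chaperones through heat shock factors, which bind inverted repeats of a short element, and glucocorticoids induce another set, which includes Tsc22d3, Fkbp5, Pdk4 and Per1.

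Promoters of 4 genes are printed here. Dbp was the only named gene called higher, and Per1, Hspa1b and Hsph1 represent the clock and heat shock lists, of which many members lay higher in late arrays. The choice was made after the values were seen. The windows are RefSeq sequences of assembly GRCm38.p6, from 250 bases before to 50 after the start of the gene, 5′ to 3′ on the strand of the gene, and capitals mark matches to CACGTG, the E-box, or to GAANNTTC or TTCNNGAA, the paired heat shock element. All 3 motifs read the same on both strands. The window of Dbp is chr7:45704997-45705296 on the plus strand, that of Per1 is the first of 2 windows at chr11:69098699-69098998 on the plus strand, that of Hspa1b is chr17:34959189-34959488 on the minus strand and that of Hsph1 is the first of 2 at chr5:149636287-149636586 on the minus strand.
Dbp: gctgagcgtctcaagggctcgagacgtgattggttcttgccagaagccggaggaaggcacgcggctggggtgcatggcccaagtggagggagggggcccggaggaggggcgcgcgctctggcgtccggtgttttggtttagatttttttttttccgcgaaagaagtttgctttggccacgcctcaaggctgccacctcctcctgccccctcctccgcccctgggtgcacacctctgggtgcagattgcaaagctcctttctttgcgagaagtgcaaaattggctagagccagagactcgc
Per1: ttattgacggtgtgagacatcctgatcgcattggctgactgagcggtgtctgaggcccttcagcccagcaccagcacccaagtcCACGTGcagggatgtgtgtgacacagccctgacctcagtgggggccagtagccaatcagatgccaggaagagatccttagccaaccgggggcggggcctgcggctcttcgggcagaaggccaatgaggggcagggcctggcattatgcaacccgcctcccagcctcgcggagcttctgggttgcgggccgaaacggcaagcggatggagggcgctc
Hspa1b: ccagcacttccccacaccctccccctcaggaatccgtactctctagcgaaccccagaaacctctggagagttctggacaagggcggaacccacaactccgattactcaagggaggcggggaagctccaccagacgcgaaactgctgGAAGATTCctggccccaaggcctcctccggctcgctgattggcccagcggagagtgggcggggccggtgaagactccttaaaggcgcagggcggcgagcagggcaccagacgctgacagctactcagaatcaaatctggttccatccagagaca
Hsph1: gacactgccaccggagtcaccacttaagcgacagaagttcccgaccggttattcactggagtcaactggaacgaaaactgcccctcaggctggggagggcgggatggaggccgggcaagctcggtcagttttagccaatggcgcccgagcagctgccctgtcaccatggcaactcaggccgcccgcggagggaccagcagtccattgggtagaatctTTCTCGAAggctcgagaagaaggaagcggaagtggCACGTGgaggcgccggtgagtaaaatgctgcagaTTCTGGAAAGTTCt
The Dbp window held none of these letters and the printed Per1 window 1 E-box, whereas the other Per1 window held none. That of Hspa1b held 1 heat shock element, and that of Hsph1 held 3, of which 2 overlap to form a run of alternating units, together with 1 E-box. A match is a description of the sequence and not a measured binding site.

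Across the 27025 genes with a window, 15.1% of 32851 promoters held GAANNTTC or TTCNNGAA, 0.603% held a further inverted unit 2 bases on, and 7.15% held CACGTG. Of the 20 chaperone genes whose late arrays all lay above the early ones, 18 had windows, 25 in number. Of these, 10 held the paired element and 5 the further unit, against 11 and 2 of the 44 windows of the other measured chaperones. CACGTG was in 4 of 10 windows of 8 clock genes whose late arrays lay higher, and in 2 of the 16 windows of the other clock genes. Those 4 windows belong to Per1, Tef and Ciart. Windows of a single gene can overlap, as those of Hsph1 do, so the counts are not of independent promoters. Per2, Plau, Hspa8 and Hsp90aa1 were not matched. Among the 200 genes with the smallest p, the shares of windows were 13.7%, 1.05% and 8.95% in the same order.

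Only 4 of 45037 probe sets (0.00888%) were called late against early by limma. Dbp, an activator of clock output, was higher with both of its probe sets in late spleens, and Plau, the urokinase plasminogen activator, and a probe set that names no gene, 1442977_at, were lower. At an unadjusted p under 0.05 there were 3551 probe sets, 1793 of them higher in late arrays. Over all genes, late arrays lay above early ones without overlap in 1253 (6.89%) and below in 830 (4.56%). An unadjusted p under 0.05 was reached by 752 genes in the higher direction (4.13%) and by 781 in the lower (4.29%), and the median difference of all genes was 0.02. The SD of the difference between a late and an early array, over all probe sets, was 0.206 to 0.304, against 0.216 to 0.315 between late arrays and 0.191 to 0.254 between early arrays.

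Dbp probe set 1418174_at stood at 0.48, 0.82 and 0.87 in late arrays 48, 49 and 50, against -0.69, -0.86 and -0.70 in early arrays 29, 31 and 33. The log2 difference was 1.40 (SE 0.0989, 95% confidence interval 1.17 to 1.63, limma adjusted p = 0.0294). With 1438211_s_at it was 1.58 (SE 0.131, adjusted p = 0.0453), with late arrays at 0.33, 0.88 and 1.04 and early arrays at -0.91, -1.06 and -0.88. No late array came within 1 log2 unit of an early one on either probe set. Within BALB/cByJ the difference of 1418174_at was 1.25 and within BALB/cJ 1.55. The call was lost without late array 49 (adjusted p = 0.206) or early array 31 (0.276).

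Plau probe set 1422139_at stood at -1.15, -0.25 and 0.02 in late arrays 48, 49 and 50, and at 0.11, 0.10 and 1.17 in early arrays 29, 31 and 33. The difference was -1.27 (SE 0.095, limma adjusted p = 0.0294), and each colony gave nearly the same value, -1.25 in BALB/cByJ and -1.28 in BALB/cJ. It rests on a low value in array 48 and a high one in array 33, each the only array of its run in its colony, while the other 4 arrays span -0.25 to 0.11. Its other probe set, 1422138_at, was at -0.58 and was not called (adjusted p = 0.238). The unnamed 1442977_at had the same shape, with -0.85, -0.24 and -0.23 in late arrays and 0.15, 0.14 and 0.92 in early arrays (-1.08, SE 0.078, adjusted p = 0.0294). Without a colony term neither Plau (adjusted p = 0.934) nor any other probe set was called, and Dbp 1418174_at had an adjusted p of 0.0623. The Plau call was also lost without late array 49 (0.206) or early array 29 (0.0739) or 31 (0.276).

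Many clock targets stood higher and 2 clock activators lower in late arrays. Of 22 listed circadian genes 21 were measured, 1 was called, 9 lay higher in all late arrays and 2 lower, against 6.89% and 4.56% of all genes, and the list median was 0.11. Nr1d1, a repressor of the loop, stood at 0.03, 0.27 and 0.34 in late arrays against -0.55, -1.0 and -0.50 in early arrays (0.80, SE 0.12, adjusted p over genes = 0.179). Its relative Nr1d2 differed by 0.57. The other clock output factors of the Dbp family, Hlf and Tef, differed by 0.64 and 0.41, with Hlf at 0.11, 0.50 and 0.83 in late arrays and -0.26, -0.11 and -0.32 in early arrays. Of the period genes, Per1 differed by 0.74, Per2 by 0.40 and Per3 by 0.34, and Ciart, a clock repressor, by 0.39. None of these passed the test.

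On the activator side, Npas2 stood at -0.30, -0.11 and -0.30 in late arrays and at 0.23, 0.05 and 0.31 in early arrays (-0.47, SE 0.0861, adjusted p = 0.251). Arntl stood at -0.34, -0.16 and -0.04 in late arrays and at 0.18, 0.14 and 0.17 in early arrays (-0.38, adjusted p = 0.322). Clock itself was at -0.18 with overlapping arrays, as were the repressor Cry1 at -0.07, Rora at -0.04, Nfil3 at -0.02 and the kinase genes Csnk1e and Csnk1d at 0.06 and 0.04. Per1 was uneven across the late arrays, at 1.02 in array 48 and 0.10 and 0.26 in arrays 49 and 50. Array 48 was the lowest late array of Dbp, Nr1d1, Nr1d2, Hlf, Tef, Ciart, Per2 and Per3. With any 1 of the 6 arrays left out, an alternative added after seeing the data, 9 or 10 clock genes lay higher and 2 or 3 lower, with a median of 0.08 to 0.21, against 10.8% to 14.8% of all genes higher and 6.98% to 9.89% lower in these smaller sets of arrays. Groups that do not overlap over all 6 arrays cannot overlap with fewer. Such counts therefore cannot fall, and they do not test how steady the pattern is.

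**Figure D1:**
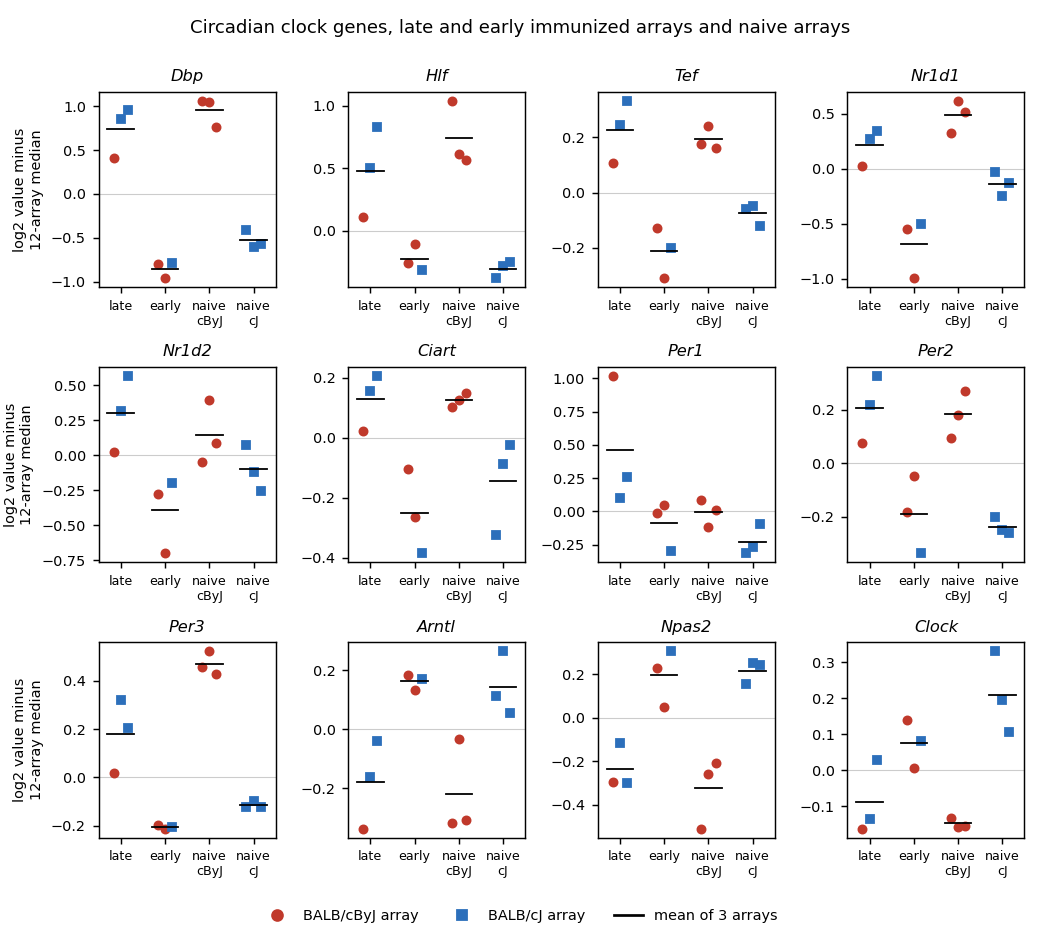
Log2 value minus the 12-array median of 12 circadian clock genes (y axes, scales differ between panels) in the 3 late and 3 early immunized arrays and in naive BALB/cByJ and naive BALB/cJ arrays; each point is 1 array, circles BALB/cByJ and squares BALB/cJ, and lines are means of 3 arrays. Dbp lies between 0.41 and 0.96 in late arrays and between -0.96 and -0.79 in early arrays, and Arntl and Npas2 lie the other way round.

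The same genes also separated the naive colonies. Dbp, as a gene, stood at 1.06, 1.04 and 0.76 in naive BALB/cByJ arrays and at -0.41, -0.61 and -0.58 in naive BALB/cJ arrays. Among all genes, naive BALB/cByJ arrays lay above naive BALB/cJ arrays without overlap in 1967 (10.8%) and below in 2580 (14.2%). Among the 21 clock genes 8 lay above and 5 below. Of the 11 clock genes that separated the runs, 9 separated the naive colonies in the same sense, late with naive BALB/cByJ, as did 338 of the 2083 genes that separated the runs. The late run holds 2 BALB/cJ arrays of 3, and the 2 late BALB/cJ arrays, at 0.85 and 0.96 for Dbp, lay above all naive BALB/cJ arrays.

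The genes with the smallest p outside the calls came next. H3f3b, which encodes a replacement histone of the H3 family, stood with its probe set 1430357_at at 0.35, 0.45 and 0.03 in late arrays and at -0.94, -1.08 and -0.99 in early arrays (1.3, SE 0.126, adjusted p = 0.0775). The other named genes on that side were Dnajb1, a heat shock co-chaperone, at 0.71 and 0.81 with 2 probe sets, Tespa1, a signalling protein of thymocytes, at 0.69, 1700019D03Rik at 0.62 and Tsc22d3, the glucocorticoid-induced leucine zipper, at 1.05, none of them called. On the lower side were Foxs1 at -0.73, Klhl13 at -0.65, Vgll3 at -0.64, Fermt2, an integrin activator, at -0.67, Id4 at -0.66 and Scn7a at -0.55, with adjusted p from 0.115 to 0.238. Foxs1 was even within each run, at -0.27, -0.33 and -0.40 in late arrays and 0.39, 0.47 and 0.39 in early arrays.

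Probe sets shared by replication-dependent histone genes differed in both directions. The H4 probe set 1428014_at, which names 13 genes, stood at -0.48, -0.66 and -0.43 in late arrays and at 0.55, 0.85 and 0.68 in early arrays (-1.2, SE 0.111, adjusted p = 0.0769). A further 3, 1422948_s_at for H4, 1452540_a_at for H2b and 1460314_s_at for H3, were lower without overlap at -0.80, -0.73 and -0.96. Against these, 1425398_at and 1445565_at, which name H2b genes, were higher at 0.31 and 0.23, and the other 12 shared histone probe sets overlapped. Because each names several near-identical genes, no single histone gene can be given for them.

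A subset of the chaperones of the heat shock response lay higher in late arrays, with none called. Of 68 listed genes in 6 classes 66 were measured, and 20 lay above the early arrays without overlap and none below, against 6.89% and 4.56% of all genes. An unadjusted p under 0.05 was reached by 15 in the higher direction and by Dnajb14 in the lower, at -0.35. The list median was 0.04, close to that of all genes, so the difference lay in a subset. Of the HSP70 class 6 of 12 lay higher, of the HSP40 class 4 of 16, of the HSP90 class 1 of 3, of the small heat shock proteins 1 of 9, of the mitochondrial chaperones 2 of 9 and of the co-chaperones 6 of 17. The small heat shock genes Hspb1 and Cryab overlapped at -0.17 and -0.19, and the co-chaperone Bag3 at 0.22. In a separate list of other heat-inducible genes, Hspa1a, Hspa1b and Uspl1 (0.21) lay higher without overlap, and Hmox1 (-0.26) and Rbbp6 (-0.16) lower.

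The inducible HSP70 gene Hspa1b stood at 1.94, 1.74 and 3.43 in late arrays and at 0.04, -0.14 and 0.43 in early arrays (2.07, SE 0.395, adjusted p over genes = 0.279). Its neighbour Hspa1a, nearly identical in sequence, so that signal may be shared between them, stood at 1.08, 0.68 and 3.10 in late arrays and at -0.32, -0.003 and 0.17 in early arrays (1.48, SE 0.572). Array 50 was the highest for both, and the groups did not overlap. Hsph1, an HSP110 exchange factor, differed by 1.08, with 0.91, 0.92 and 1.76 in late arrays and -0.04, 0.02 and 0.10 in early arrays. The constitutive Hspa8 differed by 0.33, Hspa4l by 0.27 and the testis gene Hspa1l by 0.22.

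Dnajb1, the HSP40 partner of inducible HSP70, was even across the late arrays, at 0.70, 0.72 and 0.93 in late arrays and at 0.06, -0.05 and 0.003 in early arrays (0.76, SE 0.0838, adjusted p over genes = 0.113). Dnaja1 differed by 0.54, Dnajb4 by 0.29 and Dnajc7 by 0.10. Hsp90aa1, the inducible cytosolic HSP90, differed by 0.20 over its probe sets, with 0.16, 0.22 and 0.48 in late arrays and 0.04, -0.07 and 0.13 in early arrays. The mitochondrial pair Hspd1 and Hspe1, which form the HSP60 and HSP10 chaperonin, differed by 0.20 and 0.18.

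The 6 co-chaperones that lay higher in all late arrays were Ahsa2 and Ahsa1, activators of the HSP90 ATPase, at 0.47 and 0.33, Chordc1 at 0.40, Stip1, the adaptor between HSP70 and HSP90, at 0.36, Cacybp at 0.35 and the immunophilin Fkbp4 at 0.30. Ahsa1 and Fkbp4 were even across the late arrays (0.28 to 0.39 and 0.25 to 0.33), whereas array 50 stood highest for Stip1 (0.69), Chordc1 (1.00) and Cacybp (0.70). With any 1 array left out, 20 to 24 of the 66 chaperones lay higher without overlap and 0 to 4 lower, against 10.8% to 14.8% and 6.98% to 9.89% of all genes. These counts, too, cannot fall when an array is dropped. The count at an unadjusted p under 0.05 in the higher direction was 9 without array 33, 11 without array 48 and up to 21 without array 49. Hsf1, the main heat shock factor, was not measured by a probe set of its own.

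Of the other stress lists, 2 of 28 endoplasmic reticulum stress genes, 1 of 13 genes of the TRiC chaperonin and prefoldin, 1 of 30 proteasome genes and 0 of 12 oxidative stress genes lay higher in all late arrays, and 0, 1, 4 and 1 in the same order lay lower, against the same shares of all genes. Of the cold-inducible RNA-binding genes, Cirbp stood at -0.32, -0.72 and -0.38 in late arrays and at 0.24, -0.10 and -0.38 in early arrays (-0.28, 95% confidence interval -0.60 to 0.04), with overlap. The splicing factor Srsf5 lay lower without overlap at -0.22, and Rbm3 is named only together with a pseudogene, so no value is given for it.

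Genes induced by glucocorticoids were counted in the same way. Of 17 measured, 8 lay higher in all late arrays and 1, the scavenger receptor Cd163, lower at -0.34, against 6.89% and 4.56% of all genes, with a list median of 0.13. Pdk4, a kinase that inhibits pyruvate dehydrogenase, stood at 1.52, 0.40 and 1.19 in late arrays and at -0.05, -0.29 and 0.02 in early arrays (1.23, SE 0.263, adjusted p over genes = 0.334). Ddit4, an inhibitor of mTORC1, stood at 1.11, 0.64 and 0.78 in late arrays and at -0.23, -0.22 and 0.10 in early arrays (0.97). Errfi1 differed by 0.88, Tsc22d3 by 0.67 over its probe sets, Il1r2 by 0.48, Sesn1 by 0.38 and Fkbp5 by 0.28.

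Array 48 was the highest late array for Pdk4, Ddit4, Errfi1, Tsc22d3, Per1, Il1r2 and Sesn1, and array 50 for Fkbp5. Without array 48, 8 members lay higher without overlap, a count that cannot fall when an array is dropped. An unadjusted p under 0.05 was reached by 4, against 8 with all arrays. Per1 belongs to this list and to the clock list. Other members, such as Sgk1 at 0.10, Zbtb16 at 0.13, Klf9 at 0.08 and the metallothioneins Mt1 and Mt2 at 0.04 and -0.08, overlapped.

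**Figure D2:**
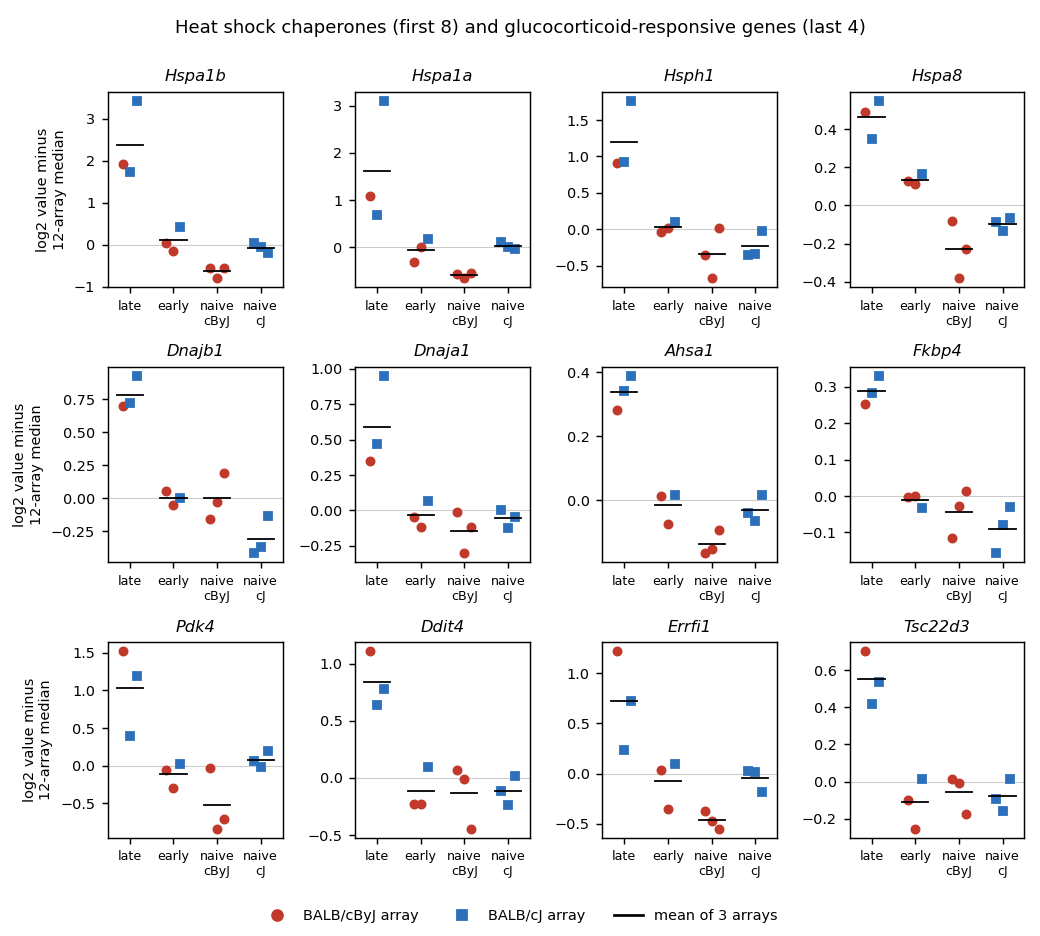
Log2 value minus the 12-array median of 8 heat shock chaperone genes and 4 glucocorticoid-responsive genes (y axes, scales differ between panels) in late, early, naive BALB/cByJ and naive BALB/cJ arrays; each point is 1 array, circles BALB/cByJ and squares BALB/cJ, and lines are means of 3 arrays. Late arrays lie above early arrays in every panel, with array 50 the highest for Hspa1b (3.43) and array 48 the highest for Pdk4 (1.52).

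Immediate early genes differed in both directions. Of 32 measured, 6 lay higher and 3 lower in all late arrays, against 6.89% and 4.56% of all genes. Dusp1, a MAP kinase phosphatase that glucocorticoids also induce, differed by 0.54 and the antiproliferative gene Btg2 by 0.36. Egr1, a serum-responsive transcription factor, stood at -0.39, -0.48 and -0.22 in late arrays and at 0.01, 0.08 and 0.12 in early arrays (-0.46), and Egr2 differed by -0.22. Ccn1, a matricellular protein, stood at -0.92, -0.77 and -0.43 in late arrays and at 0.23, 0.26 and 0.09 in early arrays (-0.92, SE 0.133, adjusted p over genes = 0.172). Fos and Jun, the AP-1 pair, overlapped at 0.07 (95% confidence interval -0.46 to 0.60) and -0.15 (-0.33 to 0.03), and the sign of Fos turned under quantile normalization, without a colony term, with a replicate block and without array 48 or 50.

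**Figure D3:**
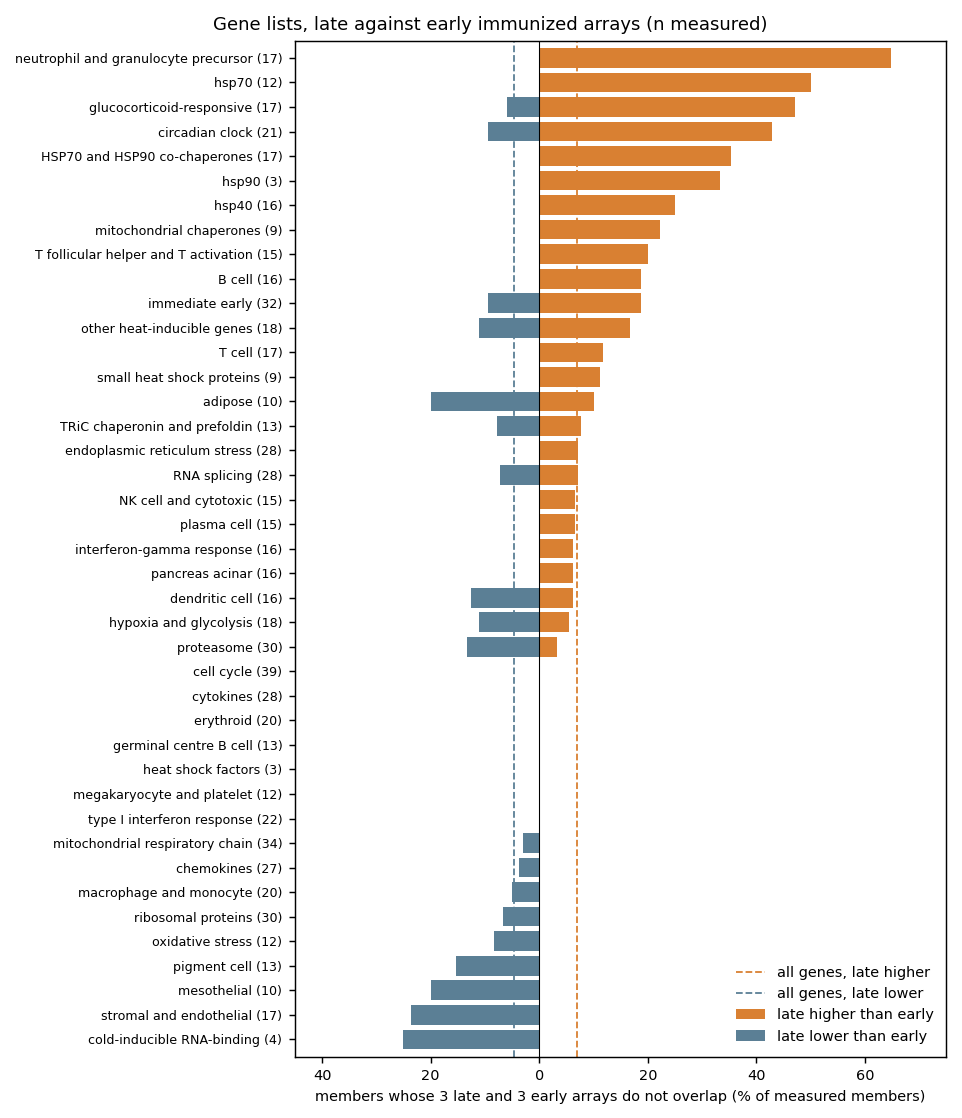
Percent of the measured members of 41 gene lists (number measured after each name) whose 3 late and 3 early arrays do not overlap, late higher to the right and late lower to the left of 0; dashed lines mark the percent of all genes, 6.89 higher and 4.56 lower. Granulocyte genes (11 of 17), HSP70 genes (6 of 12), glucocorticoid-responsive genes (8 of 17) and clock genes (9 of 21) stand at the top, and cell cycle, cytokine and erythroid genes have no member on either side.

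Markers of cell types differed between the runs as well, and in these bulk samples fewer cells of a type cannot be told apart from less RNA per cell. Of 17 measured neutrophil and granulocyte precursor genes, 11 lay higher in all late arrays, against 6.89% of all genes. An unadjusted p under 0.05 was reached by 13, against 4.13% of all genes in the higher direction. None was called, and the list median was 0.61. The list medians were 1.17, 0.85 and 0.73 in late arrays and -0.12, 0.53 and 0.48 in early arrays. Mmp8, neutrophil collagenase, stood at 1.47, 1.03 and 0.61 in late arrays and at -0.09, 0.55 and 0.28 in early arrays (0.89, SE 0.229). Ltf, lactoferrin, differed by 0.79, Ctsg, cathepsin G, by 0.78 and Camp, the cathelicidin precursor, by 0.68. Not every member rose, since the receptor genes Cxcr2 and Csf3r overlapped at -0.02 and -0.07, and Itgb2l at 0.10. Leaving out array 48 gives the difference within BALB/cJ, and leaving out array 33 that within BALB/cByJ. Without array 48 the list median was 0.24, with 0 of 17 genes at an unadjusted p under 0.05 in the higher direction, and without array 33 it was 0.91.

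The medians of the mesothelial list and of the stromal and endothelial list lay the other way, and array 33 had most of the high values. The median of 10 mesothelial genes was 0.08, -0.03 and -0.18 in late arrays and 0.07, 0.01 and 1.02 in early arrays. Of these genes 2 lay lower without overlap, against 4.56% of all genes. The median difference was -0.48. Without array 33 it was 0.08. For 17 stromal and endothelial genes the median difference was -0.24, and -0.08 without array 33. Of them 4 lay lower without overlap, against the same 4.56% of all genes. Pdgfrb, a pericyte receptor, stood at -0.23, -0.49 and -0.33 in late arrays and at 0.08, 0.13 and 0.53 in early arrays (-0.64), and Tagln, a smooth muscle protein, differed by -0.58 with -0.31, -0.54 and -0.29 in late arrays and 0.20, -0.01 and 0.33 in early arrays.

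Several pigment cell genes were high in early arrays 31 and 33, and also in naive BALB/cJ arrays. In these naive arrays Dct stood at 6.3, 6.3 and 2.3, against -0.54, 0.085 and -0.32 in naive BALB/cByJ arrays. Dct, an enzyme of melanin synthesis, stood at -0.30, -0.18 and -0.09 in late arrays and at -0.14, 4.72 and 5.69 in early arrays, so the groups overlapped (-4.21, SE 1.25, adjusted p = 0.524). The list median was -0.59 over 13 genes and -0.21 without array 33. Adipoq, the fat hormone adiponectin, stood at -1.88, -0.38 and -1.24 in late arrays and at 0.62, -0.86 and 2.81 in early arrays (-2.69), and the adipose list median of -0.49 was -0.04 without array 33. Of 20 macrophage and monocyte genes 7 had an unadjusted p under 0.05 in the lower direction, against 4.29% of all genes. Only 1 lay lower without overlap, close to the 4.56% of all genes.

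Lymphocyte lists differed less. Of 17 T cell genes 2, Il7r and Ccr7, lay higher in all late arrays, with a list median of 0.21, which was -0.005 without array 33 and 0.44 without array 48. Of 16 B cell genes 3 lay higher, with a median of 0.04. Over all genes 6.89% lay higher and 4.56% lower without overlap. None of 20 erythroid, 39 cell cycle, 13 germinal centre B cell, 28 cytokine and 22 type I interferon genes separated the runs. The erythroid median was 0.47, 0.18 and -1.03 in late arrays and -0.11, 0.12 and -0.16 in early arrays, and the cell cycle median was 0.42, 0.03 and -0.52 in late arrays, so array 50 was low in both. Without array 50, 12 of the 20 erythroid, 5 of the 39 cell cycle and 7 of the 22 type I interferon genes lay higher without overlap, against 14.8% of all genes, and 17, 21 and 10 in the same order had an unadjusted p under 0.05 in the higher direction. Without array 48, 7 of the 28 cytokine genes lay higher, against 12.7% of all genes. The part of these cell type differences in the clock, heat shock and glucocorticoid values was not tested.

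**Figure D4:**
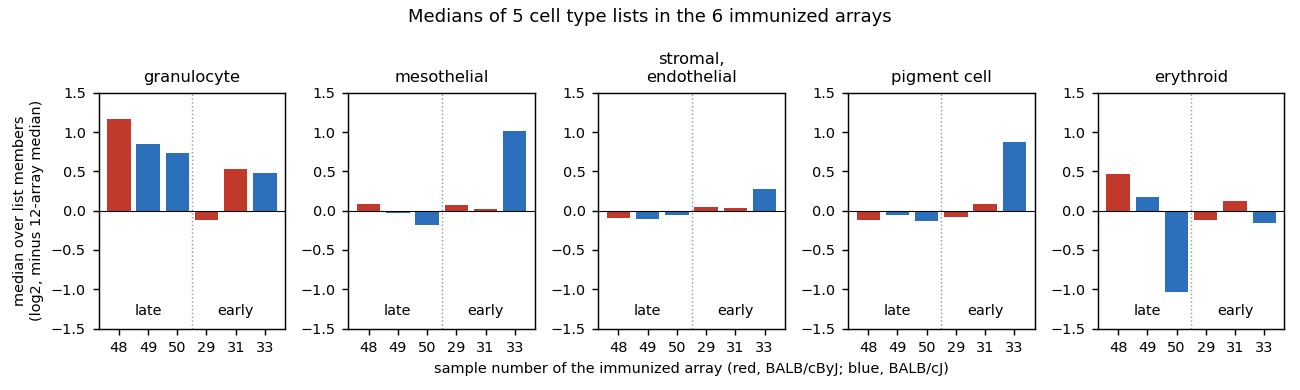
Median over the measured members of 5 cell type lists (y axis, log2 value minus the 12-array median) in each immunized array, numbered by sample, with late arrays left and early arrays right of the dotted line and bars red for BALB/cByJ and blue for BALB/cJ. Granulocyte medians are 0.73 to 1.17 in late and -0.12 to 0.53 in early arrays, array 33 is high for mesothelial (1.02) and pigment cell genes (0.87), and array 50 is low for erythroid genes (-1.03).

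The 2 colonies were then fitted apart. In BALB/cByJ, where the late run is array 48 alone, 155 probe sets (0.344%) were called, 14 higher and 141 lower. In BALB/cJ, where the early run is array 33 alone, 55 (0.122%) were called, 2 higher and 53 lower. In these fits the lone array is assumed to vary like the others. The 4 probe sets called in both colonies were those of Dbp, Plau and 1442977_at, all with the same direction in both.

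Higher in late BALB/cByJ were Dbp, Tsc22d3 (1.36 and 1.34), H3f3b (1.37), Ddit4 (1.33), Cxcr4, a homing receptor, at 1.23, Per1 (1.00) and Sesn1 (0.83). These genes also stood higher in late BALB/cJ, Cxcr4 at 0.66 and Ddit4 at 0.61, but of them only Dbp was called there. The 141 lower probe sets included Rictor, a subunit of an mTOR complex, at -1.80, Huwe1, a ubiquitin ligase, at -1.77, Cpsf6, an mRNA cleavage factor, at -1.75 and the kinase Gsk3b at -1.52, which stood between -0.12 and 0.05 in BALB/cJ. Of the 155 called probe sets 63 (40.6%) name no gene, against 20.3% of all probe sets.

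In BALB/cJ the most negative call was 1417867_at, which names no gene, at -3.61, and the named genes among the lower calls included several that array 33 carried high. C3ar1, the receptor of the complement fragment C3a, was at -2.69, -1.83 and -1.50 with 3 probe sets. Aldh1a2, a retinoic acid synthase of mesothelium, was at -2.24, Col3a1, a fibrillar collagen, at -2.07 and -1.54, Plat, the tissue plasminogen activator, at -1.90, Plin4 at -1.89 and Lyve1 at -1.61. In BALB/cByJ the same probe sets of Aldh1a2, Plat and Lyve1 were at -0.30, -0.13 and -0.11 and were not called. Only 6 of the 55 (10.9%) name no gene.

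The test of the difference between the colonies in the run effect called 1 probe set (0.00222%), C3ar1 1442082_at. It stood at 0.30 in late and 0.34 and 0.39 in early BALB/cByJ arrays, and at 0.22 and 0.18 in late and 2.90 in early BALB/cJ arrays (BALB/cByJ minus BALB/cJ 2.62, SE 0.162, adjusted p = 0.0371). None of the 4 probe sets called late against early had opposite signs in the colonies.

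**Figure D5:**
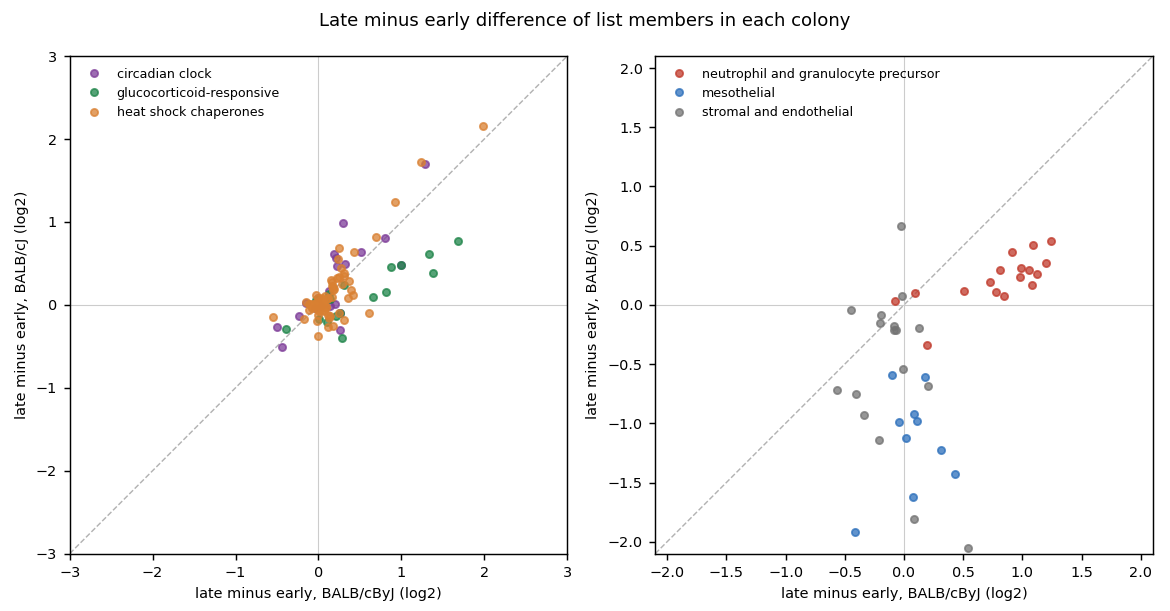
Late minus early log2 difference in BALB/cByJ (x axis) against that in BALB/cJ (y axis), each point a gene, for clock, glucocorticoid-responsive and heat shock chaperone genes (left) and for granulocyte, mesothelial and stromal genes (right); the dashed line marks equal differences. Dbp and the large chaperones lie near the line, Hspa1b at 1.99 and 2.16, the larger glucocorticoid differences lie below it, most granulocyte genes lie to the right of it and the mesothelial genes lie below 0 in BALB/cJ.

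Each run was also set against the naive arrays in a fit over all 12 arrays, in which both comparisons share the naive arrays. Late against naive, 99 probe sets (0.22%) were called, 87 higher and 12 lower, and early against naive 14 (0.0311%), 8 higher and 6 lower. Of the 99, 84 had the same sign in early arrays and 8 were called in both. These counts rest on single arrays, since without array 48 they were 4 for late and 99 for early and without array 33 they were 226 and 0.

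The chaperones, with 158 probe sets tested, accounted for 15 of the 87 higher ones, from 9 genes, against 0.22% of all probe sets called. Hspa1b was higher in late than in naive mice by 2.54 to 2.71 with 3 probe sets (adjusted p = 0.00297 to 0.00932). Early against naive these probe sets were at 0.52 to 0.60 and were not called. Hsph1 (1.5 and 1.37), Dnajb1 (0.96 and 0.89), Dnaja1 (0.82 and 0.68), Hsp90aa1 (0.57), Ahsa1 (0.50), Cacybp (0.49) and Fkbp4 (0.45) were called in late mice alone, and a call in a single run is not a test of their difference. Hspa8 1431182_at was called in both, at 1.03 in late and 0.76 in early mice.

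Granulocyte genes, with 20 probe sets tested, accounted for 13 of the late calls, against 0.22% of all probe sets. Ltf stood at 1.99, Camp at 1.89 and Mpo at 1.77 in late mice, and at 1.2, 1.21 and 1.15 in early mice without a call. Of glucocorticoid-responsive genes 5 were called in late mice, with 6 of 37 probe sets. These were Pdk4 at 1.3, Errfi1 at 1.01, Tsc22d3 at 0.94 and 0.99, Ddit4 at 0.97 and Per1 at 0.67, and early values were between -0.11 and 0.18. Of the germinal centre B cell genes 5 were called in late and 2 in early mice, with 5 and 2 of 19 probe sets. The shares of all probe sets were 0.22% and 0.0311%. Rgs13 was higher by 2.71 in late and 1.97 in early mice and S1pr2 by 0.87 and 0.69, and Saa3, an acute-phase protein, was higher by 2.13 and 2.79.

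The clock genes lay on either side of the naive mean. Dbp 1418174_at was higher in late mice by 0.53 (adjusted p = 0.0294) and lower in early mice at -0.87 (adjusted p = 0.0115). The late value averages opposite directions, since array 48, at 0.48, lay below the naive BALB/cByJ arrays at 0.76, 0.99 and 0.82, and arrays 49 and 50, at 0.82 and 0.87, lay above the naive BALB/cJ arrays at -0.48, -0.62 and -0.51. Nr1d1 was at -0.01 in late mice and lower in early mice at -0.81 (adjusted p = 0.0252). Its late value averages the same opposite directions, with array 48 at 0.03 below naive BALB/cByJ at 0.33, 0.62 and 0.51, and arrays 49 and 50 at 0.27 and 0.34 above naive BALB/cJ at -0.03, -0.24 and -0.13. H3f3b was at 0.27 in late mice and lower in early mice at -1.03 (adjusted p = 0.0252), and the H4 probe set 1428014_at was lower in late mice at -0.52 and higher in early mice at 0.69. Over the 5044 probe sets whose late and early arrays did not overlap, the naive mean was nearer to the late mean in 1974 and nearer to the early mean in 3070.

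The runs hold unequal numbers of the colonies, so the colony difference in immunized mice was fitted with and without a term for run. With the term 51 probe sets (0.113%) were called, 27 higher in BALB/cByJ and 24 lower, and without it 49. Of these 39 were shared, 12 were called with the term only, among them Plau at -1.05 and Mef2b, a germinal centre transcription factor, at 1.04, and 10 without it only. Control probe sets stood as follows. None of the 18 hybridization spikes separated the runs, 1 of the 27 poly-A spikes lay higher and 1 of the 16 endogenous controls lower in late arrays. All 18 hybridization spikes had a higher late mean, by 0.116 to 0.245, with array medians of 0.28, 0.27 and 0.15 in late and -0.04, -0.15 and 0.38 in early arrays. The poly-A median was -0.5 in array 48, the late array behind the 141 lower calls in BALB/cByJ, -0.005 and 0.29 in the other late arrays and 0.12, -0.29 and 0.04 in early arrays. Naive arrays spanned a wider range, from -0.66 in array 12 to 0.42 in array 10. The part of these spikes in the calls was not tested.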

How the data were processed

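RNA of 12 mouse spleens, 3 per group, was hybridized to Affymetrix mouse genome arrays. The authors made the deposited values with GeneSpring GX 10 by robust multi-array averaging (quantile normalization, median polish) on a logarithmic scale, read here as log2 although the base is not stated in words, and centred every probe set on its 12-array median (the medians of the deposited values lie within 5e-07 of 0). The values hold no signal level, so no filter on dim probe sets and no trended variance could be applied, and the number of arrays limits the precision. All 12 columns belonged to samples of the series, and 0 others were found. Of 45101 probe sets 64 controls were left out. The annotation gave 1 gene for 34945 of the rest, several for 932 and none for 9160.

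The late minus early difference came from limma 3.58.1 under R 4.3.3 (eBayes without trend and not robust), applied to the 6 immunized arrays with colony as covariate and 3 residual degrees of freedom. Further fits used cell means of run and colony, all 12 arrays for each run against naive, and colony with and without run. Nothing beyond the labels says how the animals of a run were handled, and p-values measure the spread between these animals. The fit was tested on simulated data. No set test was made, and the 41 gene lists are described by counts and medians. Members and lists were chosen with earlier results of these data known.

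Named genes were the called probe sets without overlap that name 1 gene, and, with fewer than 6 called in a direction, the 6 with the smallest p there among those without overlap, given as not called; the 4 members of a list with a call that had the smallest p; and a set of heat shock, clock, glucocorticoid, cold and pigment genes in any case. Other list members, and genes of the fits within colonies and against naive, were named after their values were seen. The alternatives are given in the closing section. Python 3.11.15 with pandas 2.3.3 read the promoters and matplotlib 3.10.9 drew the plots.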

Additional observations from a re-analysis of the deposited data

Results flagged for a closer look

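The run difference of C3ar1, the complement C3a receptor, differed between the colonies by the interaction term of the fit. Its probe set 1442082_at was at -0.07 late minus early in BALB/cByJ and at -2.69 in BALB/cJ, a difference of 2.62 (SE 0.162, limma adjusted p = 0.0371). The BALB/cJ value sets 2 late arrays, at 0.22 and 0.18, against array 33 alone, at 2.90. The other 2 probe sets of C3ar1 were at 0.16 each in BALB/cByJ and at -1.83 and -1.50 in BALB/cJ. The median of mesothelial genes in array 33 was 1.02 and that of pigment cell genes 0.87. Their part in the C3ar1 value was not tested. At an unadjusted p under 0.05 the interaction had 2982 probe sets.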

How the results depend on the processing

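The count of 4 probe sets called late against early was unstable. It was 15 over all 12 arrays (Plau adjusted p = 0.0764), 0 without a colony term, 17 as the average of the within-colony differences, 7 with a robust variance, 7 among the more variable probe sets (SD over 12 arrays above its median), 0 against a fold of 1.2 (Dbp 1418174_at 0.0864) and 2 at the level of genes. With 1 array left out it was 0 to 155, with 0 without late array 49 or early array 31, 12 without array 50, 55 without array 48 and 155 without array 33. The counts without array 48 and without array 33 are those of the fits within BALB/cJ and within BALB/cByJ. Quantile normalization also called 4, of which 2 were shared and Plau was not one of them (0.131). Subtracted array medians and array weights gave 4, and leaving out probe sets with names ending in _s_at, _x_at or _a_at gave 3. With replicate number as a block beside colony 0 were called (Dbp 0.9998). The arrays of replicate 1 are all early and those of replicate 3 all late, so only replicate 2 holds both runs. That block takes up most of the run difference, and its fit cannot decide whether the calls hold. Deviations of same-numbered arrays correlated at 0.121, -0.01 and -0.17 for replicates 1, 2 and 3. With a single value per number, and runs that differ among the numbers, these cannot decide whether the numbers share a pairing. The interaction count of 1 was 4 over all 12 arrays and 0 after quantile normalization. With 1 array left out, late against naive was 4 to 226 and early against naive 0 to 99, and early against naive was 29 after quantile normalization. Reversed were Hspa1a 1452388_at with the replicate block (-0.58) and Fos 1423100_at without a colony term (-9.8e-05), after quantile normalization (-0.039), with the replicate block (-0.46) and without array 48 or 50 (-0.32 to 0.46 with 1 array left out). Of the other values 638 kept direction and side of the threshold, 19 lost and 15 gained a call and 17 moved. A trended variance and a filter on signal could not be run. The cause of these changes was not tested.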
